A study of Mus musculus with 8 samples.

Results

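The 40 genes described here encode the receptors, inhibitors and planar polarity proteins of the Wnt pathway. They were taken by gene symbol out of 23337 symbols in the files. The rule uses no measured value, but the list was made with earlier results of these data known. The 40 genes comprise 10 frizzled receptors, 5 co-receptors or alternative receptors, 9 secreted inhibitors or inhibitor receptors, 4 R-spondins, 5 genes of ligand acylation and intracellular transduction and 7 core planar polarity genes. The Wnt ligands themselves were left out.

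RNA was sequenced from MOE, a murine oviductal epithelial cell line of the FVB strain. The oviduct corresponds to the human fallopian tube, and the study concerns cancers that start there and reach the ovary. Cells were trypsinised at confluence and replated for 6 h on 3D collagen gels (4 libraries) or on 2D collagen (4 libraries), in MOE medium that lacked EGF in both groups. The labels name a single line, no genetic difference between the groups and no separate cultures behind the replicates, so the p-values measure the spread between libraries, which may be technical.

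Wnt proteins are secreted, lipid-modified ligands that bind the extracellular cysteine-rich domain of frizzled receptors. Together with Lrp5 or Lrp6 a frizzled passes the signal to the Dvl proteins, and beta-catenin escapes a destruction complex that contains Apc. Frizzleds also act with Celsr, Vangl and Prickle proteins in planar cell polarity, the alignment of cells within the plane of an epithelium. In the mouse oviduct Celsr1 is known for orienting the cilia and the epithelial folds along the tube.

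The frizzled results turn on Fzd2, which forms a subfamily with Fzd7 and Fzd1. Over their coding sequences (GENCODE M21, mm10 build) Fzd2 was 76.6% identical to Fzd7 and 71.2% identical to Fzd1. The 60 coding bases in which Fzd2 and Fzd7 were most alike lie in the cysteine-rich domain, the part that binds Wnt. They are shown with the closest stretch of Fzd1, because a read from this place has few bases by which these receptors can be told apart. Capitals mark the bases that differ from Fzd2.
Fzd2: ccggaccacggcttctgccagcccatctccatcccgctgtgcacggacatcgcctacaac
Fzd7: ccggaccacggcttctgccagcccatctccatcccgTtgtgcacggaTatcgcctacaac
Fzd1: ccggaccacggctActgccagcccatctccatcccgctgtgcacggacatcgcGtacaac
On mm10 the Fzd2 stretch is chr11:102604846-102604905 (plus strand), that of Fzd7 chr1:59483089-59483148 (plus strand) and that of Fzd1 chr5:4757206-4757265 (minus strand), each within the coding part of a single exon. Fzd7 and Fzd1 each differed from Fzd2 at 2 of the 60 bases. Over whole transcripts, 0 of the 3614 windows of 50 bases in Fzd2 occurred in a transcript of any other gene. The windows of Fzd7, Fzd1, Celsr1 and Celsr2 were likewise free of exact copies.

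The deposited values, called normalized counts below, were read counts scaled in each library by 1 size factor. The libraries held 15692699 to 25862036 reads. The 11820 genes that reached a normalized count of 10 in 4 or more libraries were tested with limma on log2(normalized count + 1). A gene was called where the Benjamini-Hochberg adjusted p over all tested genes was under 0.05, and fold changes are 3D over 2D on that log2 scale, which understates changes of low genes. All 13 markers of oviductal epithelium had reads in at least 1 library, and their summed level was 8657 to 10750 RPM (reads per 1000000 reads of the library) on 3D collagen and 10650 to 11850 on 2D collagen. Most of that sum came from the keratins Krt7, Krt8, Krt18 and Krt19. Of the other markers on that list, Pax8 averaged 9494 normalized counts on 3D collagen and 10270 on 2D collagen. Ovgp1 had 1 to 24 reads per library and Muc1 had 6 to 22. Epcam and Cldn3 of that list did not reach the filter, and its member Krt8, a keratin of simple epithelia, fell by 0.76 on the log2 scale on 3D collagen (limma, adjusted p = 0.0397). The library of 2D replicate 2 stood apart, since its gene-centred values correlated with GC content at r = 0.628 across 11690 genes, against -0.419 to 0.206 in the other libraries (a description, since genes are not independent replicates).

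Of the 40 genes, 23 passed the filter, 8 had reads but did not pass it, and 9 had no read in any library. Among the 23, limma called 2 genes lower on 3D collagen, Fzd2 and Celsr2, which is 8.70% of them against a background of 3.39% of all tested genes. It called 0 of the 23 higher, against a background of 2.33%. At an unadjusted p under 0.05 (limma), 1 of the 23 was higher, 4.35% against 11.7% of all tested genes, and 6 were lower, 26.1% against 12.6%. As in limma, edgeR and DESeq2 on the recovered reads called 0 higher. The median fold change of the 23 was -0.145, beside 0.017 for all tested genes, with 10 above 0 and 13 below 0. All 4 libraries on 3D collagen lay above all 4 on 2D collagen for 1 gene, Dvl2, which is 4.35% of the 23 against 8.05% of all tested genes. They lay below for 3 genes, Fzd2, Dvl1 and Celsr2, which is 13.04% against 10.4%. In bulk RNA, fewer cells that make a transcript and less of it per cell cannot be told apart.

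**Figure D1:**
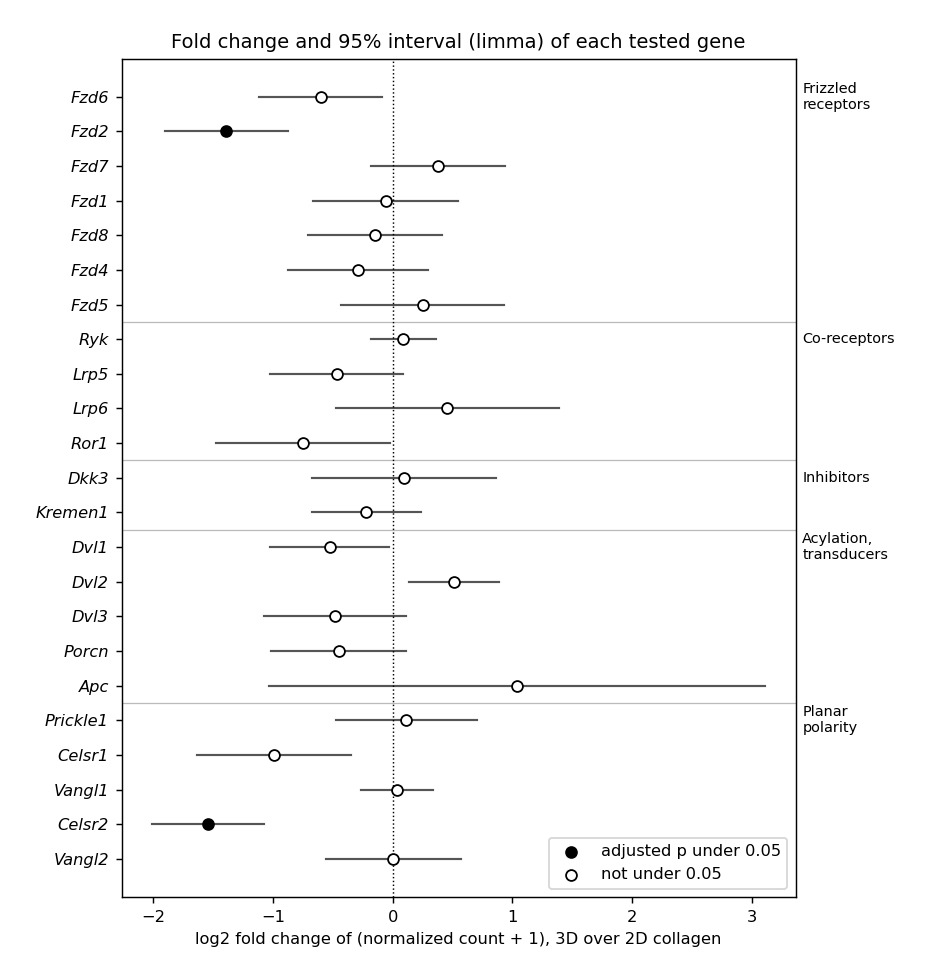
Fold change of the 23 tested genes, grouped by role, as log2 of (normalized count + 1) on 3D over 2D collagen (x axis), with limma's 95% interval as a line and filled circles where the adjusted p was under 0.05. Celsr2 at -1.54 and Fzd2 at -1.39 are the filled circles, and the interval of Apc, from -1.03 to 3.11, is the widest.

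Among the 7 tested frizzled receptors, Fzd2 fell on 3D collagen and the other 6 were not called. Fzd2 binds several Wnts, among them Wnt5a, and its gene is a single exon on chromosome 11 (102604396 to 102608058, plus strand, mm10). Its normalized counts were 633, 680, 778 and 892 on 3D collagen, against 1401, 2962, 1746 and 1948 on 2D collagen. The lowest 2D library was well above the highest 3D library, and 2D replicate 2 was the highest of all. The means were 746 ± 114.5 on 3D collagen and 2014 ± 671 on 2D collagen (SD, n = 4 each), a log2 fold change of -1.39 with a standard error of 0.23 and a 95% interval of -1.91 to -0.87 (limma, adjusted p = 0.0127). Without 2D replicate 2 the fold change was -1.19 (limma, adjusted p = 0.0107).

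Fzd6, a frizzled best known from mouse hair and skin polarity, was the most abundant of the family per length. Its normalized counts were 1816, 1874, 1697 and 1315 on 3D collagen and 3497, 2298, 2924 and 1712 on 2D collagen. The groups overlapped through the lowest 2D library, replicate 4. The log2 fold change was -0.60 with a standard error of 0.23 and an interval of -1.12 to -0.09, and it was not called (limma, adjusted p = 0.15). The gene lies on chromosome 15 (39006034 to 39038188, plus strand, mm10).

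Fzd7, the receptor most alike Fzd2, had normalized counts of 575, 781, 633 and 567 on 3D collagen, against 381, 684, 623 and 344 on 2D collagen. The libraries overlapped, with the lowest values in 2D replicates 1 and 4. Its log2 fold change of 0.38 had an interval of -0.18 to 0.94 and was not called (limma, adjusted p = 0.389). Fzd1 had a log2 fold change of -0.06 with an interval of -0.67 to 0.55. The other tested frizzleds were Fzd8 at -0.15, Fzd4, known as the norrin receptor of retinal vessels, at -0.29 and Fzd5 at 0.25. None of these 4 was called (limma, adjusted p from 0.537 to 0.916). For Fzd5, 17.8% of the exonic bases overlap the antisense gene model Gm38058, and the strand setting of the counting is not given in the sources used here.

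Levels of different genes were compared as RPKM, reads per kilobase of exon and per 1000000 reads of the library. On this scale Fzd6 averaged 19.0 ± 2.03 on 3D collagen and 26.5 ± 8.96 on 2D collagen (SD, n = 4 each). Fzd2 averaged 11.3 ± 2.51 on 3D collagen and 26.3 ± 6.17 on 2D collagen. On 2D collagen Fzd2 and Fzd6 did not differ beyond their spread, while on 3D collagen every Fzd2 value was below every Fzd6 value. Fzd7 averaged 7.73 ± 1.21 on 3D collagen and 5.36 ± 1.40 on 2D collagen, and Fzd1 averaged 5.30 ± 0.596 on 3D collagen and 5.04 ± 1.40 on 2D collagen. Fzd8, Fzd4 and Fzd5 lay at 0.932, 0.508 and 0.470 on 3D collagen and at 0.917, 0.567 and 0.351 on 2D collagen. Of the remaining receptors Fzd9 had 1 read in 3D replicate 1 and 1 read in 2D replicate 1, and Fzd3 and Fzd10 had none. A count of 0 over a group allows up to 0.0393 RPM on 3D collagen and 0.0370 on 2D collagen (3 reads over the group, counting error only).

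**Figure D2:**
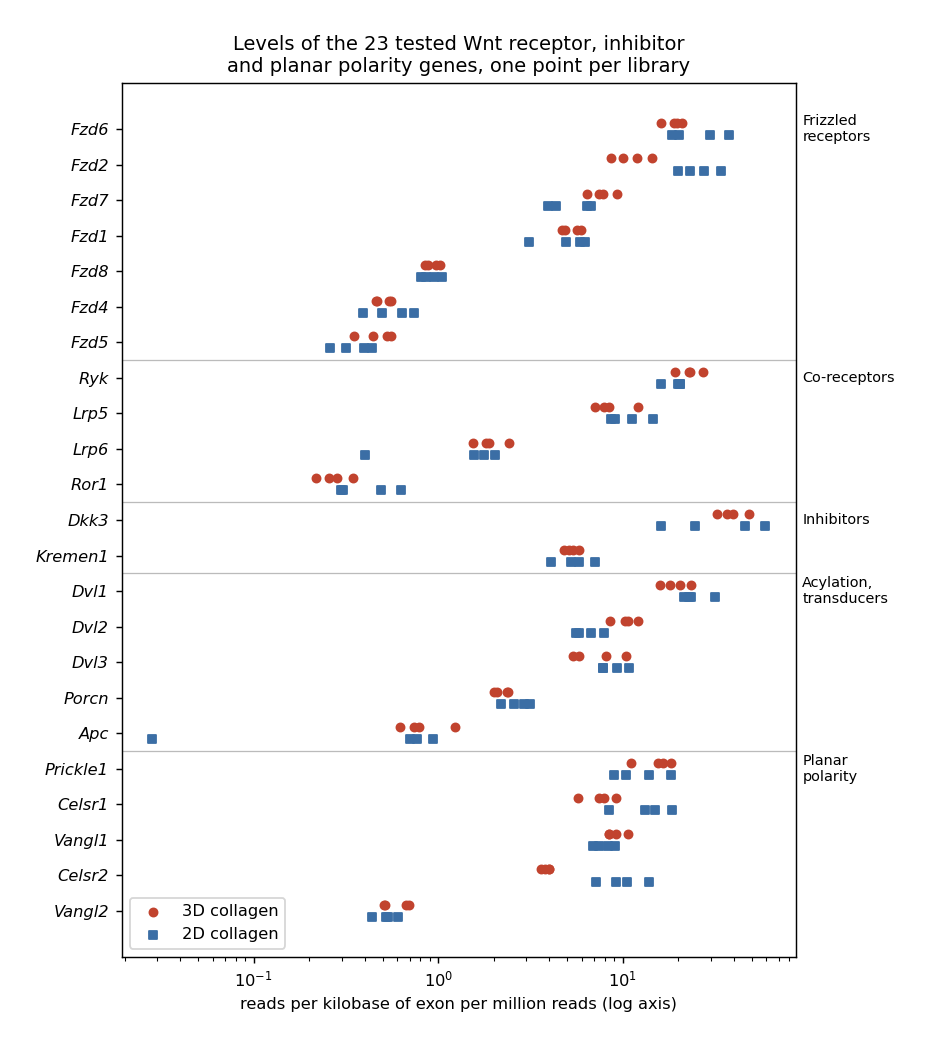
Level of each of the 23 tested genes in each library, in RPKM on a log axis, grouped by role, with 3D collagen as red circles above 2D collagen as blue squares. Fzd2 and Celsr2 show separate groups, and the isolated blue squares of Apc and Lrp6 are 2D replicate 2.

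The make-up of the frizzled family differed between the substrates in the shares of Fzd7, Fzd1, Fzd8 and Fzd5 and in the mean share of Fzd2. Summed over the family, the level per length was 40.9, 48.2, 46.9 and 44.8 on 3D collagen, against 68.8, 68.4, 68.1 and 54.8 on 2D collagen, and every 3D library was below every 2D library. Fzd2 made up 24.9 ± 5.34% of that sum on 3D collagen and 40.9 ± 10.99% on 2D collagen (SD, n = 4 each), with overlap between the groups through 3D replicate 4 and 2D replicate 1. Fzd7 made up 17.0 ± 1.57% on 3D collagen and 8.19 ± 1.68% on 2D collagen, and Fzd1 made up 11.7 ± 0.824% on 3D collagen and 7.65 ± 1.56% on 2D collagen, with no overlap for either. Fzd8 made up 2.07 ± 0.285% on 3D collagen and 1.41 ± 0.125% on 2D collagen, also without overlap. For Fzd5 the shares were 1.04 ± 0.213% and 0.5365 ± 0.0872%, again without overlap. None of Fzd7, Fzd1, Fzd8 and Fzd5 was called in level. The share of Fzd6 was 42.1 ± 4.25% on 3D collagen and 40.4 ± 11.3% on 2D collagen. The level of Fzd2 over that of Fzd7 was 1.36, 1.08, 1.52 and 1.95 on 3D collagen, against 4.55, 5.36, 3.47 and 6.996 on 2D collagen. These shares and ratios are descriptions without a test. A lower level of Fzd2 alone would raise the share of every other frizzled, and its part in the higher shares was not tested. The share of Fzd2 was 28.9% in 2D replicate 1 and 32.3% in 3D replicate 4. In the same libraries that of Fzd7 was 6.35% and 16.6%, and that of Fzd6 was 54.9% and 36.2%.

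**Figure D3:**
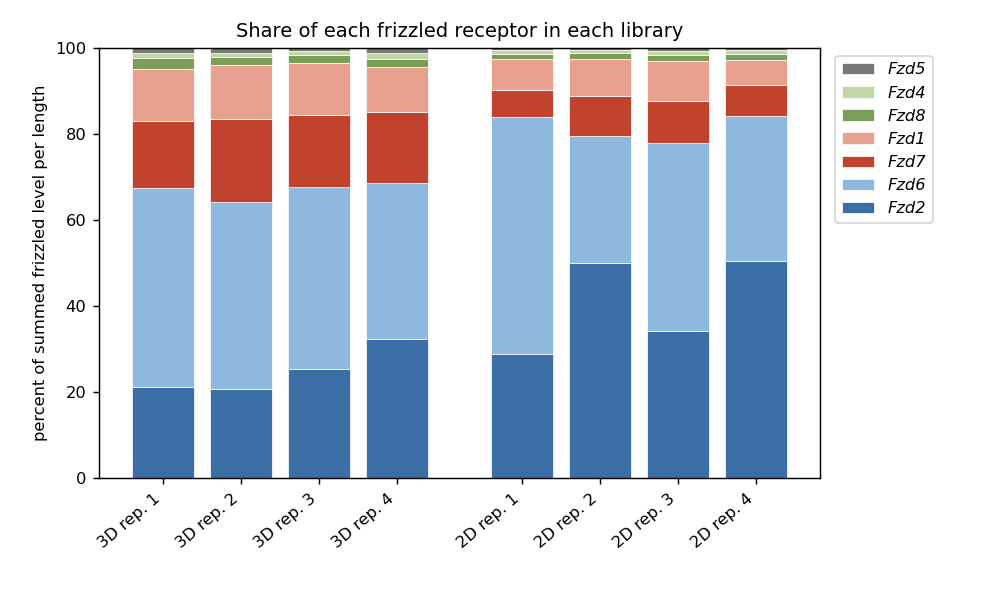
Percent of the summed frizzled level per length (y axis) that each of 7 frizzleds makes up in each library, with the 4 libraries on 3D collagen left of the 4 on 2D collagen. The Fzd2 segment runs from 20.8% to 32.3% on 3D collagen and from 28.9% to 50.5% on 2D collagen, and the Fzd7 segment is wider in every 3D library than in any 2D library.

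Co-receptors and alternative receptors gave no call among 4 tested genes. Ryk, a receptor-like protein with an inactive kinase domain, was the most abundant per length. It had normalized counts of 1743, 1924, 1872 and 2079 on 3D collagen and 1777, 1730, 1863 and 1778 on 2D collagen. These groups overlapped, and the fold change of 0.09 had a standard error of 0.12 and an interval of -0.18 to 0.36 (limma, adjusted p = 0.693). Lrp5, a co-receptor for beta-catenin signalling, averaged 1605 ± 522 on 3D collagen and 2192 ± 538 on 2D collagen (SD, n = 4 each), with a log2 fold change of -0.47 and an interval of -1.02 to 0.09 (limma, adjusted p = 0.284). Ror1, a receptor tyrosine kinase-like receptor for Wnt5a, was the least abundant of the tested genes per length when averaged over all 8 libraries, at 0.354 RPKM. On 2D collagen alone Fzd5 was lower, at 0.351 against 0.432 for Ror1. The log2 fold change of Ror1 was -0.75 with an interval of -1.48 to -0.02 (limma, adjusted p = 0.195). Ror2 had no read.

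Lrp6, the relative of Lrp5, had normalized counts of 418, 462, 460 and 559 on 3D collagen, against 534, 129, 496 and 409 on 2D collagen. A single library, 2D replicate 2, was low, and the other 7 overlapped. Its log2 fold change was 0.45 in all libraries (limma, adjusted p = 0.544) and -0.01 without that library (limma, adjusted p = 0.973). The same library carries the strongest trend with GC content, and its part in the value of Lrp6 was not tested.

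Among the secreted inhibitors and Kremen1 only 2 of 9 genes were tested, and neither was called. Dkk3 is a secreted member of the Dickkopf family whose action on Wnt signalling depends on the cell type. At a level per length of 39.3 ± 6.86 on 3D collagen and 36.5 ± 19.6 on 2D collagen (SD, n = 4 each) it was the most abundant of all 40 genes per length. Its normalized counts were 2635, 2021, 2911 and 2082 on 3D collagen and 3818, 1283, 3169 and 1599 on 2D collagen. The 3D libraries lay inside the range of the 2D libraries, and the log2 fold change was 0.09 with a standard error of 0.34 and an interval of -0.67 to 0.86 (limma, adjusted p = 0.893). Without 2D replicate 2 it was -0.17 (limma, adjusted p = 0.775). Kremen1, a receptor through which Dkk1 clears Lrp6 from the surface, averaged 748 ± 88.9 on 3D collagen and 888 ± 216 on 2D collagen, and its fold change was -0.22 (limma, adjusted p = 0.548).

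The classical inhibitors were nearly silent on either substrate. Dkk1, Sfrp4 and Wif1, which bind Lrp6 or capture Wnt outside the cell, had no read in any of the 8 libraries. Sfrp1 and Sfrp2, secreted frizzled-like decoys, had 1 read each, in 3D replicate 1. Dkk2 had 6 reads in 3D replicate 2 and 1 read in 2D replicate 1. Sfrp5 reached normalized counts of 5.66, 2.62, 0.933 and 6.40 on 3D collagen and 0.974, 2.39, 1.58 and 3.68 on 2D collagen, overlapping values under the filter. The R-spondins, secreted proteins that amplify Wnt signals through Lgr receptors, were likewise near 0: Rspo3 had 1 read, in 2D replicate 2, and Rspo1, Rspo2 and Rspo4 had none. At these depths a difference between the substrates was not detectable for any of the 11 inhibitor and R-spondin genes that failed the filter.

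Of the 5 genes of ligand acylation and intracellular transduction none was called. Dvl1, a cytoplasmic adaptor that binds activated frizzleds, was the most abundant per length. Its normalized counts were 1794, 2177, 1813 and 1348 on 3D collagen, against 2200, 3767, 2188 and 2266 on 2D collagen. Every 3D library was below every 2D library, though 2177 and 2188 nearly touch, and 2D replicate 2 was far above the rest. The log2 fold change was -0.53 with a standard error of 0.22 and an interval of -1.02 to -0.03 (limma, adjusted p = 0.183), and without 2D replicate 2 it was -0.34 (limma, adjusted p = 0.29).

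Dvl2, its paralog, was higher in every 3D library but was not called either. It had normalized counts of 1065, 1251, 1149 and 1292 on 3D collagen, against 675, 998.6, 744 and 956 on 2D collagen. All 3D libraries were above all 2D libraries, with a log2 fold change of 0.51, a standard error of 0.17 and an interval of 0.14 to 0.88 (limma, adjusted p = 0.103). With the trend on GC content removed from each library the adjusted p was 0.0231 (limma), and with scaling by library size it was 0.0433 (limma). It passed in only 3 of 21 alternatives and in 0 of the 8 limma fits that left a library out. Over all 21 the adjusted p ran from 0.00859 to 0.23. The antisense gene Acadvl overlaps 18.3% of the exonic bases of Dvl2, and reads of the 2 genes cannot be told apart there without a known strand setting. As a share of the summed Dvl level per length, Dvl2 made up 24.5%, 24.04%, 28.5% and 35.8% on 3D collagen, against 15.4%, 14.0%, 15.2% and 20.1% on 2D collagen.

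Dvl3 averaged 877 ± 307 on 3D collagen and 1190 ± 259 on 2D collagen (SD, n = 4 each), which put it at -0.48 on the log2 scale (limma, adjusted p = 0.305). Porcn, the membrane-bound acyltransferase that adds the lipid to Wnt proteins, averaged 122 ± 17.0 on 3D collagen and 170 ± 42.7 on 2D collagen, which put it at -0.45 (limma, adjusted p = 0.305). Apc, the scaffold of the destruction complex, had normalized counts of 198, 220, 225 and 337 on 3D collagen and 289, 10.8, 232 and 236.5 on 2D collagen. As for Lrp6, the single low value belongs to 2D replicate 2. The log2 fold change of 1.04 had an interval of -1.03 to 3.11 (limma, adjusted p = 0.531) and was -0.07 without that library (limma, adjusted p = 0.894).

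**Figure D4:**
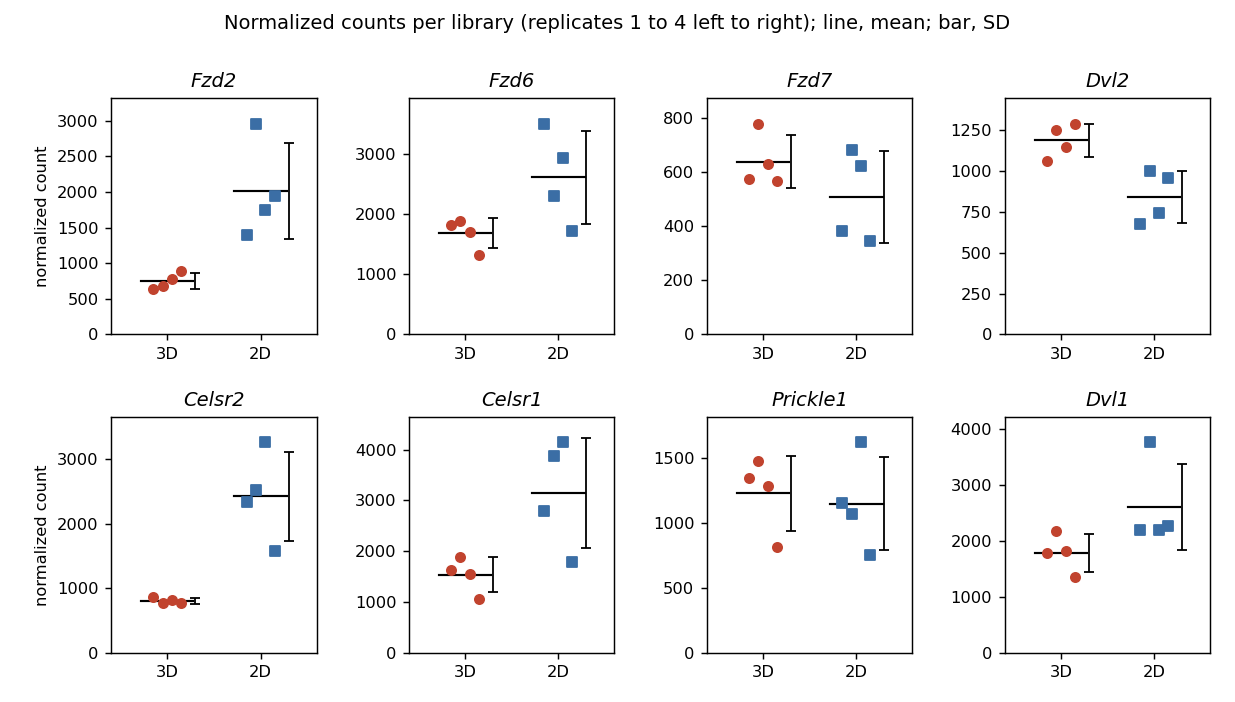
Normalized counts of 8 genes in each library (y axis from 0), with 3D collagen (red circles) left of 2D collagen (blue squares), the mean as a line and the SD as a bar. The 4 values of Celsr2 on 3D collagen lie between 767 and 868, below all 2D values, while those of Prickle1 and Fzd7 overlap.

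In the planar polarity core, Celsr2 fell on 3D collagen and the other 4 tested genes were not called. Celsr2 is an atypical cadherin of the flamingo family that links neighbouring cells, and its gene lies on chromosome 3 (108390851 to 108415552, minus strand, mm10). Its normalized counts were 868, 767, 817 and 776 on 3D collagen, against 2342, 2522, 3264 and 1582 on 2D collagen. The 3D libraries were close together, and the lowest 2D library, replicate 4, was still above all of them. The means were 807 ± 45.7 on 3D collagen and 2428 ± 691 on 2D collagen (SD, n = 4 each), a log2 fold change of -1.54 with a standard error of 0.21 and an interval of -2.01 to -1.08 (limma, adjusted p = 0.00548).

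Celsr1, the paralog known for oviduct polarity, had normalized counts of 1634, 1889, 1561 and 1067 on 3D collagen, against 2784, 3879, 4146 and 1786 on 2D collagen. The groups overlapped only in that 2D replicate 4 was below 3D replicate 2. The log2 fold change was -0.99 with a standard error of 0.29 and an interval of -1.63 to -0.35, and it missed the threshold (limma, adjusted p = 0.0747). It passed with DESeq2 on the recovered reads (adjusted p = 0.0093) and in limma without 2D replicate 4 (adjusted p = 0.026). The gene lies on chromosome 15 (85898929 to 86033777, minus strand, mm10).

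The 3 Celsr genes were also summed. Per length, the summed Celsr level was 11.3, 12.9, 11.96 and 9.78 on 3D collagen, against 23.7, 24.2, 32.3 and 15.6 on 2D collagen, with no overlap. The level of Celsr2 over that of Celsr1 was 0.508, 0.388, 0.501 and 0.696 on 3D collagen, against 0.804, 0.622, 0.753 and 0.847 on 2D collagen. 3D replicate 4 overlapped 2D replicate 2 in this ratio, which was not tested. Celsr3, known from axon guidance, did not pass the filter. It had 2, 4, 3 and 3 reads on 3D collagen, against 1, 1, 0 and 0 reads on 2D collagen.

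Vangl1 and Vangl2, the membrane proteins that oppose the frizzled side of the polarity complex, had log2 fold changes of 0.04 with an interval of -0.26 to 0.34 and of 0.01 with an interval of -0.56 to 0.57 (limma, adjusted p = 0.885 and 0.991). Vangl1 was the dominant form, at 12.1 to 18.0 times the level of Vangl2 per length on 3D collagen and 12.9 to 19.0 times on 2D collagen. Prickle1, a cytoplasmic partner of Vangl, was the most abundant core gene per length when averaged over all 8 libraries, at 14.1 RPKM against 10.7 for Celsr1. On 3D collagen it averaged 15.4 against 7.61 for Celsr1, and on 2D collagen 12.9 against 13.7. Its normalized counts were 1342, 1475, 1283 and 815 on 3D collagen and 1155, 1068, 1621 and 751 on 2D collagen. In each group replicate 4 was the lowest, the groups overlapped, and the log2 fold change was 0.12 with a standard error of 0.26 and an interval of -0.47 to 0.70 (limma, adjusted p = 0.83). Prickle2 stayed under the filter, at 10.2, 12.2, 9.33 and 6.40 on 3D collagen and 7.79, 4.78, 5.54 and 0 on 2D collagen.

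Marker lists of other cell types were read beside Fzd2 and Celsr2. The mesothelium list (4 of 4 genes with a read) summed to 339 to 532 RPM on 3D collagen and 533 to 1095 on 2D collagen, nearly all from Msln, which missed the threshold at -1.05 on the log2 scale (limma, adjusted p = 0.0537). The smooth muscle list (6 of 6 with a read) summed to 242 to 890 on 3D collagen and 434 to 2158 on 2D collagen, mostly Acta2, and its member Lmod1 fell by 3.00 on the log2 scale (limma, adjusted p = 0.00762). The ciliated-cell list (7 genes, of which 5 in the files, all with a read) summed to 16.6 to 73.6 on 3D collagen and 61.5 to 86.7 on 2D collagen. Foxj1 of that list averaged 499 ± 372 normalized counts on 3D collagen and 1353 ± 359 on 2D collagen (SD, n = 4 each), with overlap. It missed the threshold at -1.70 on the log2 scale (limma, adjusted p = 0.0706). Rsph1, the other tested member, was at 0.44 (limma, adjusted p = 0.337). On the fibroblast list Pdgfra, a receptor of stromal cells, was called higher on 3D collagen, with normalized counts of 19.25, 15.7, 14.9 and 16.5 there and 2.92, 5.97, 2.37 and 7.35 on 2D collagen (limma, log2 fold change 1.73, adjusted p = 0.0340). These values rest on 3 to 18 reads per library. The other tested members of the list differed in direction, with Col1a1 at -0.73 (limma, adjusted p = 0.253) and Dcn at 0.94 (limma, adjusted p = 0.690). Col1a2, Col3a1, Pdgfrb, Lum and Dpt did not reach the filter. Of all marker genes tested, Krt8, Lmod1 and Pdgfra were the 3 called, beside a background of 2.33% higher and 3.39% lower among all tested genes. Pdgfra reached the filter only through the 3D libraries and Lmod1 only through the 2D libraries. Each of them was therefore tested only because a single group was high, and their calls are no independent support. Lmod1 had only 2, 9, 4 and 5 reads on 3D collagen, against 77, 30, 54 and 20 on 2D collagen. Within the mesothelium and ciliated-cell lists Lrrn4 and Upk1b, and Dnaic1, Ccdc39 and Tekt1, were at 0 in most libraries or within a few reads of it. The lists overlapped between 3D and 2D collagen for fibroblasts (4.35 to 17.4 and 3.44 to 19.5), leukocytes (26.2 to 38.9 and 20.8 to 39.9), endothelium (17.2 to 38.9 and 14.2 to 29.4) and intestine (1.52 to 8.76 and 1.62 to 10.2). No list had a gene at 0 in all 8 libraries, and the part of these cell types in the lower Fzd2 and Celsr2 was not tested.

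The rest of the pathway was read from a list of 93 other Wnt genes, of which 90 were in the files and 71 were tested. Of these, 2 were called higher and 4 lower on 3D collagen, 2.82% and 5.63% of the list against 2.33% and 3.39% of all tested genes, and the median fold change was 0.007. The 2 higher genes, Lgr5 and Tcf7, stood on the lists of R-spondin receptors and receptor turnover and of nuclear partners of beta-catenin. These 2 lists also held a lower gene each, Mesdc2 and Bcl9l. Lgr5, an R-spondin receptor, had normalized counts of 216, 401, 333 and 443 on 3D collagen, against 115, 55.0, 137 and 113 on 2D collagen. Its log2 fold change was 1.75 with a standard error of 0.34 (limma, adjusted p = 0.0225), and the adjusted p was 0.0507 to 0.0813 without 3D replicate 2, 3 or 4. Tcf7, a DNA-binding partner of beta-catenin, had 411, 663, 480 and 404 on 3D collagen, against 204, 241, 309 and 137 on 2D collagen, with no overlap. It averaged 1.16 higher on the log2 scale with a standard error of 0.28 (limma, adjusted p = 0.0430), and lost the call when any library other than 2D replicate 3 was left out (limma, adjusted p from 0.0508 to 0.133) and with no filter (limma, adjusted p = 0.0514).

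Of the 4 lower genes, 2 stood on the list of polarity effectors, Fat and Dachsous genes. That is 8.70% of the 23 genes tested there, against 3.39% of all tested genes. Gpr124, an adhesion receptor best known as a Wnt7 co-activator in brain vessels, had normalized counts of 207, 370, 345 and 524 on 3D collagen, against 1053, 1159, 1106 and 1308 on 2D collagen. The groups were well apart, with a log2 fold change of -1.74 and a standard error of 0.26 (limma, adjusted p = 0.00762). Daam2, a formin that binds Dvl, had 108, 114, 87.7 and 63.1 on 3D collagen, against 287, 407, 397 and 170 on 2D collagen. Its log2 fold change was -1.70 with a standard error of 0.33 (limma, adjusted p = 0.0221), and the adjusted p was 0.0557 to 0.0801 when 2D replicate 3 or any of 3D replicates 1, 2 and 3 was left out. The other 21 tested genes of that list were not called.

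The remaining lower genes were Mesdc2 and Bcl9l. Mesdc2, the chaperone that folds Lrp5 and Lrp6, had normalized counts of 1756, 1608, 1671 and 1795 on 3D collagen, against 2655, 2741, 2426 and 3010 on 2D collagen. The groups were well apart, with a log2 fold change of -0.66 with a standard error of 0.13 (limma, adjusted p = 0.0207). It lost the call with scaling by library size (adjusted p = 0.067) and, at 0.0628 to 0.0845, when any of 3D replicates 1, 2 and 3 was left out. Bcl9l, a co-activator of beta-catenin, had 2084, 1810, 1552 and 1445 on 3D collagen, against 2829, 4491, 4110 and 2798 on 2D collagen. Its groups did not overlap either, with a log2 fold change of -1.03 with a standard error of 0.20 (limma, adjusted p = 0.0230), and an adjusted p of 0.0511 to 0.0879 when 2D replicate 3 or any of 3D replicates 2, 3 and 4 was left out. Among 9 genes of Wnt secretion and other extracellular regulation none was called, and the most abundant, the heparan sulphate proteoglycan Sdc1, was at -0.15 (limma, adjusted p = 0.734). Among 17 genes of the destruction complex none was called. At an unadjusted p under 0.05 (limma), 6 of the 17 were higher, 35.3% against 11.7% of all tested genes, and 2 were lower, 11.8% against 12.6%. The most abundant there was Ctnnb1, beta-catenin itself, with 22170, 23350, 22420 and 24890 on 3D collagen, against 14260, 10730, 18930 and 13150 on 2D collagen. All 3D libraries were above all 2D libraries, with a log2 fold change of 0.73 and a standard error of 0.19, just short of the threshold (limma, adjusted p = 0.0521). It passed in 9 of 21 alternatives, among them limma with the GC correction (adjusted p = 0.0285) or library size scaling (0.0393) and DESeq2 (0.00695), and over all 21 the adjusted p ran from 0.00695 to 0.145.

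**Figure D5:**
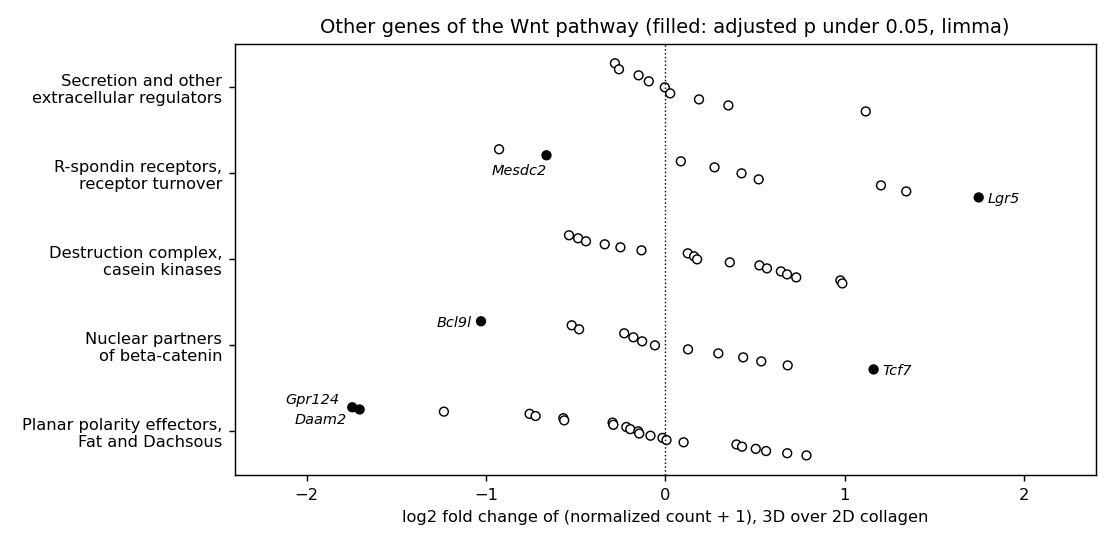
Fold change of the 71 other tested Wnt pathway genes in 5 lists, as log2 of (normalized count + 1) on 3D over 2D collagen (x axis), with filled circles where limma's adjusted p was under 0.05. Lgr5 at 1.75 and Tcf7 at 1.16 are filled to the right of 0, and Mesdc2, Bcl9l, Daam2 and Gpr124 are filled to the left.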

How the data were processed

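RNA was isolated with TRIzol and column-purified, per the labels' protocols. The mm10 build, HTSeq 0.6.1p1 and DESeq2 were used, per the submitters' processing notes. Aligner, annotation, strand setting and filters were not given in the sources consulted. Each deposited file holds a normalized signal for every gene. Divided by the worth of 1 read, 100% of the values came out whole within 0.001 reads, and the divisors matched recomputed median-of-ratios size factors, so whole reads were recovered from the values alone.

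limma 3.58.1 (R 4.3.3) was run on log2(normalized count + 1) with a trended, robust prior and no covariate, for 4 against 4 libraries, over genes reaching 10 in at least 4 libraries. edgeR 4.0.16 and DESeq2 1.42.0 on recovered reads were alternatives (edgeR called 321 genes higher and 376 lower on 3D collagen), besides other scalings, pseudocounts, filters and priors, a GC correction (lowess span 30%), a replicate block and fits without each library in turn. Fits were tested on simulated data. Levels per length used GENCODE M21 exon lengths, which matched all 40 symbols. Shared sequence was counted over 50-base windows of the longest annotated transcript of each gene with a read.

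The 40 genes, the wider and marker lists and the tests were chosen with earlier results of these data known. The 40 symbols form a list made for this work. By rule, the text gives full values for those of the 40 past the threshold and for the most abundant of each role, names every gene of the wider list past the threshold, and names the most abundant gene of 2 wider lists with no call. Fzd7, Lrp6, Dvl2, Apc, Celsr1, Celsr3 and the low genes were given per library after their values were seen.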

Additional observations from a re-analysis of the deposited data

Results flagged for a closer look

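Within a group of 4 libraries, a library was singled out where its gap to the nearest other library, over the range of the group, exceeded Dixon's 95% critical value. Groups with no read were not tested. A library was singled out in 8 of 59 groups of the 40 genes and in 0 of 12 groups of the 6 called genes of the wider list. Of the 8, 7 are all the groups with reads in a single library, where the gap equals the range by construction. Among the 52 groups of the 40 genes with reads in 2 or more libraries 1 was singled out, and chance alone flags about 5% of such groups. Fzd9 had a normalized count of 1.13 in 3D replicate 1 and 0.974 in 2D replicate 1, each 1 read. Dkk2 had 5.24 in 3D replicate 2, from 6 reads, and 0.974 in 2D replicate 1, from 1 read. Sfrp1 and Sfrp2 each had 1.13 in 3D replicate 1, and Rspo3 had 1.19 in 2D replicate 2, each from 1 read. The remaining one is Dvl1, at 3767 in 2D replicate 2, against 2188 to 2266 in the other 2D libraries.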

How the results depend on the processing

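Fzd2, Celsr2 and Gpr124 were past the threshold in all 21 alternatives. Fzd2 had a log2 fold change of -1.55 to -1.19 and an adjusted p of 4.35e-06 to 0.0492, and Celsr2 -1.73 to -1.32 and 2.65e-09 to 0.0285. No called value changed direction. The 23 tested genes held 1 higher call with library size scaling, with the GC correction and with the GC correction plus the replicate block, each time Dvl2. Over all genes, higher and lower calls were 708 and 871 with DESeq2 and 481 and 604 with the GC correction, and higher calls were 498 with library size scaling, which moved the median fold change of all genes to 0.189. Leaving out each library gave 44 to 267 higher and 104 to 370 lower calls over all genes. In the wider list higher calls were 6 with library size scaling, 1 without a filter, 4 with a filter at 50, 8 with DESeq2 and 7 with the GC correction, lower calls were 8 with DESeq2, and leaving out each library gave 0 to 4 higher and 1 to 5 lower calls. The causes were not tested.

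Same-numbered libraries deviated together at r = -0.168, 0.369, 0.246 and 0.808 for numbers 1 to 4. Each of 3D replicates 2, 3 and 4 correlated best with the 2D library of its own number. The exception was 3D replicate 1, which correlated best with 2D replicate 2 (r = 0.446). Seen from the 2D side the match was weaker. There 2D replicate 1 correlated best with 3D replicate 4 (r = 0.162), and 2D replicate 2 with 3D replicate 1. For 2D replicate 3 the values with 3D replicates 3 and 1 were nearly equal (r = 0.246 and 0.244), and 2D replicate 4 correlated best with its own number. The labels state no pairing, so the main fit did not take the numbers as pairs, and whether they mark pairs was not settled. With the replicate block all genes gave 663 higher and 742 lower calls, the 23 tested genes 4 lower (Fzd6 and Celsr1 added), and the wider list 8 higher and 8 lower. With the replicate block and the GC correction the counts were 995 and 1075, 4 lower and 9 higher.

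Genes with a few reads per library cannot be resolved at this depth, and 1 line at a single time limits what the values cover. Without dividing by exon length, the shares of Fzd1, Fzd2, Fzd6 and Fzd7 in the frizzled sum stayed within 1 SD of their values, while on 3D and 2D collagen that of Fzd4 was 1.70% and 1.355%, of Fzd5 1.61% and 0.860%, and of Fzd8 2.77% and 1.96%. Divided by length these were 1.13% and 0.873%, 1.04% and 0.5365%, and 2.07% and 1.41%.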
